A study of Gallus gallus with 24 samples.

Results

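Purine nucleotides are built from small molecules in a chain of reactions, the de novo pathway, that ends in inosine monophosphate (IMP), from which AMP and GMP are made. Birds excrete waste nitrogen mainly as uric acid, and the purine ring is the route by which that nitrogen leaves the liver, so the pathway serves both nucleotide supply and excretion. The enzymes followed here were PPAT, GART, PAICS, ADSL and ATIC of the de novo pathway, XDH, which oxidises hypoxanthine and xanthine to uric acid, and AMPD1, the muscle AMP deaminase that turns AMP back into IMP. Members were all probe sets whose only gene symbol in the array annotation was one of these 7 names. This gave 13 probe sets of 38535 on the array: 3 for GART, 2 each for PPAT, PAICS, XDH and AMPD1, and 1 each for ADSL and ATIC. Of the 13, 12 passed the filter on dim signals, and every gene kept at least 1.

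The samples came from Ross broiler chickens, a fast-growing meat strain, taken on the day of hatch (day 0) or a week later (day 7), and the tissues were breast muscle, duodenum, liver and whole brain. All birds are labelled male, and no treatment distinguished the groups. Each of the 8 groups held 3 pools of total RNA, each pool from 4 to 5 chicks and each on its own array, so that the spread between birds within a pool is not seen. The labels do not say whether pools of different tissues came from the same chicks. Values are linear array signals made with MAS5, 1 per probe set and array, relative to the rest of that array. Signals with ± are means and SD of 3 pools. A log2 change is day 7 minus day 0 of log2(signal + 28.36), and the ± after it is its standard error from a limma fit over all 24 arrays. A gene was called where its Benjamini-Hochberg adjusted p over 25758 probe sets was under 0.05. Where a gene had several probe sets, the one with the highest mean signal stands for it. Signals of different genes depend on their probes and were not set against each other. They were added only in the sums of marker genes, in which bright probe sets weigh most.

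The correlation across probe sets was 0.916 to 0.981 between arrays within a group and reached 0.804 at most between tissues, and no arrays were identical. Marker genes of each tissue were brightest in that tissue for 7 of 7 liver, 8 of 8 brain, 7 of 8 duodenum and 5 of 6 muscle genes measured. Some arrays stood apart. Hybridisation control transcripts averaged 26512 for pool 2 of duodenum at day 0 and 43759 for pool 1 of duodenum at day 7, while the range elsewhere was 5913 to 15150. The log2 ratio of 5′ over 3′ signal of control genes was lowest for brain pool 1 of day 0 (-1.67) and brain pool 3 of day 7 (-1.17). Without these 4 arrays no age call of a member changed in any tissue, except that ADSL passed the threshold in muscle. The W-linked gene HINTW, expected in females, gave signals of 927 to 8160 as a mean over its probe sets in these pools labelled male.

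Liver had the highest mean signal of all 5 de novo enzymes and of XDH at both ages, though ADSL in muscle at day 7 was not called different from liver (adjusted p = 0.208). A gene was counted as liver-enriched where liver exceeded every other tissue by 4-fold or more at the same age and each of those differences was called. PPAT, GART, PAICS, ATIC and XDH met this at day 0 and again at day 7, which is 5 of 7 members at each age. Of all 11444 genes tested, 2.62% met it at day 0 and 2.74% at day 7. ADSL and AMPD1 did not: breast muscle came close to liver for ADSL, and AMPD1 was highest in muscle.

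PPAT, the amidotransferase of the first committed step, gave signals of 14958, 16910 and 15147 in the liver pools of day 0 and of 21656, 20743 and 19242 at day 7. Every liver pool lay far above every pool of another tissue, the highest of which was 2832. At day 0 liver exceeded duodenum by 2.63 ± 0.19 on the log2 scale, muscle by 4.62 ± 0.19 and brain by 5.27 ± 0.19 (adjusted p of 3.29e-11 or less). The liver rise with age of 0.39 ± 0.19 was not called (adjusted p = 0.224).

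GART, a trifunctional enzyme of the early ring-building steps, ranged from 20232 to 22500 over the 6 liver pools, with no separation of the ages (log2 change 0.01 ± 0.23). Outside liver its highest pool was 1562, in muscle at day 7. PAICS, a bifunctional enzyme that carries out the carboxylase step and then joins aspartate to the product, gave 19412, 22696 and 21196 in liver at day 0 and 26990, 29566 and 23808 at day 7. The ages did not overlap, but the change of 0.34 ± 0.17 was not called (adjusted p = 0.222). ATIC, which carries out the final reactions to IMP, gave 34337, 37296 and 39465 in liver at day 0 and 48121, 42201 and 42549 at day 7. Again the pools did not overlap, and the change of 0.26 ± 0.14 was not called (adjusted p = 0.278). Such separation of the ages was common among all probe sets tested. It was seen for 34.4% in liver, 31.9% in duodenum, 46.6% in muscle and 13.1% in brain. Lack of overlap, here and below, therefore does not mark a change on its own.

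For PPAT and ATIC the brain groups had the lowest means of all, for GART only duodenum at day 7 was lower, and for PAICS brain lay in the middle of the order. Brain means were 380 ± 21.8 at day 0 and 469 ± 159 at day 7 for PPAT, 314 ± 13 and 328 ± 81.6 for GART, 894 ± 81.8 and 1139 ± 114 for ATIC, and 1959 ± 385 and 2377 ± 306 for PAICS. For PAICS duodenum at day 0, muscle at day 7, brain at day 7, brain at day 0 and muscle at day 0 followed each other in that order, and none was called different from its neighbour, although groups farther apart were, such as duodenum and muscle at day 0 (1.19 ± 0.17, adjusted p = 1.75e-06). For PPAT muscle at day 0 was not called different from brain at day 7 (adjusted p = 0.0843). For GART brain at day 0 was not called different from duodenum at day 7, the lowest group (adjusted p = 0.454).

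**Figure D1:**
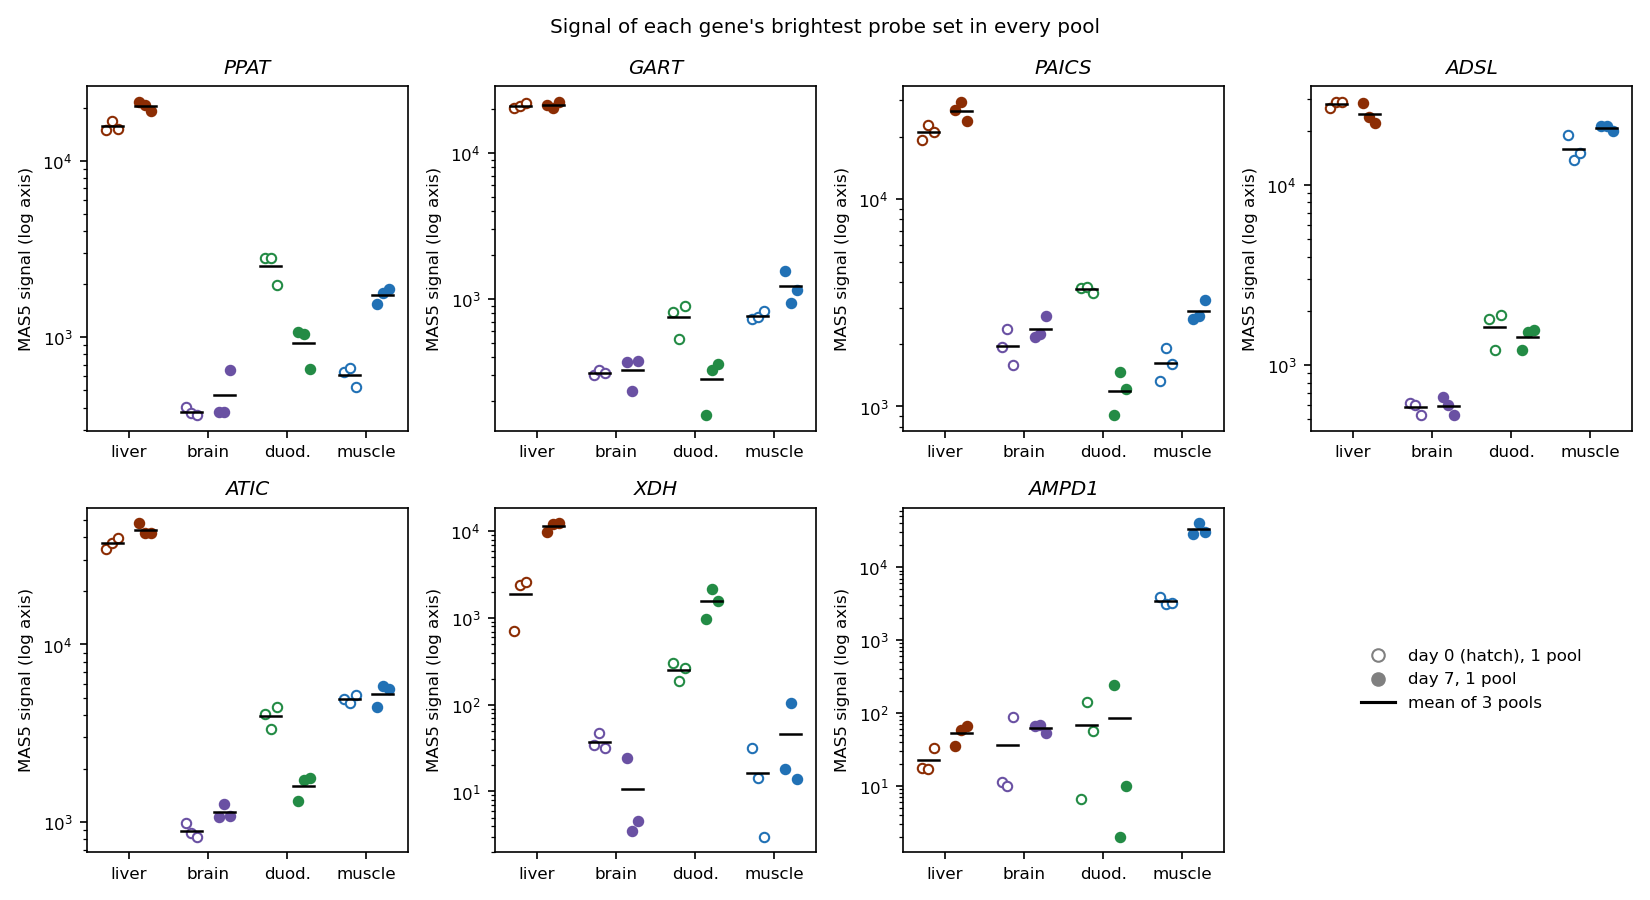
Signal of the 7 genes in every pool, 1 panel per gene, on a log axis, with tissue on the horizontal axis and day 0 and day 7 drawn separately; points are pools and bars are group means (n = 3 pools). The liver pools lie above all others for PPAT, GART, PAICS and ATIC, ADSL is high in both liver and muscle, XDH is at 9941 to 12428 in liver at day 7, and AMPD1 is high in muscle only.

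Outside liver, all 4 of these liver-enriched de novo genes fell in duodenum between hatch and day 7. In muscle PPAT and PAICS rose, GART was called higher by its brightest probe set under some settings only, and the change of ATIC was 0.09 ± 0.14.

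For PPAT the duodenum pools gave 2832, 2812 and 1990 at day 0 and 1068, 1048 and 658 at day 7. The ages did not overlap, and the log2 change was -1.45 ± 0.19 (adjusted p = 5.12e-06). In muscle the pools gave 639, 672 and 522 at day 0 and 1543, 1785 and 1872 at day 7, again without overlap (1.47 ± 0.19, adjusted p = 2.35e-06). At day 0 PPAT was therefore higher in duodenum than in muscle, and at day 7 it was higher in muscle by 0.91 ± 0.19 (adjusted p = 0.000272).

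The PAICS pools of duodenum gave 3718, 3770 and 3525 at day 0, then 907, 1459 and 1209 at day 7. The log2 change was -1.63 ± 0.17 (adjusted p = 1.53e-07), and duodenum at day 7 had the lowest mean of the 8 groups. In muscle PAICS went from 1320, 1910 and 1607 to 2658, 2723 and 3248, a rise without overlap of 0.83 ± 0.17 (adjusted p = 0.000464). PAICS and PPAT are neighbours on chromosome 4, where their gene spans overlap in the RefSeq annotation. In chicken and human the pair is known to be read in opposite directions from a shared promoter region.

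GART in duodenum gave 820, 534 and 897 at day 0 and 160, 327 and 357 at day 7, with a log2 change of -1.36 ± 0.23 (adjusted p = 8.98e-05). All day 7 pools lay below all day 0 pools. In muscle GART gave 725, 757 and 832 at day 0 and 1562, 943 and 1154 at day 7. The ages did not overlap, yet the rise of 0.61 ± 0.23 was only just called (adjusted p = 0.047), and the call was lost under 9 of 15 alternatives, with adjusted p up to 0.237 when day 7 pool 1 was left out.

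ATIC in duodenum went from 4081, 3330 and 4447 at day 0 to 1315, 1726 and 1765 at day 7 (-1.29 ± 0.14, adjusted p = 2.84e-07), with a wide gap between the ages. Its muscle pools, 4964, 4711 and 5190 at day 0 and 4452, 5840 and 5602 at day 7, overlapped, and no change was called (adjusted p = 0.692).

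ADSL, which acts once in the de novo chain and again in the step from IMP to AMP, had a signal in muscle that approached that in liver. Liver pools gave 26900, 29007 and 28795 at day 0 and 28694, 23747 and 21977 at day 7. Muscle pools gave 18858, 13765 and 15132 at day 0 and 21217, 21177 and 19954 at day 7. Duodenum (1208 to 1896) and brain (527 to 666) lay far below, muscle at day 0 being 3.28 log2 units above duodenum at day 0 (adjusted p = 6.69e-15). Among the 4 liver and muscle groups no neighbours in the order were called different, although liver and muscle at day 0, which are not neighbours, differed by 0.84 ± 0.16 (adjusted p = 7.72e-05).

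No age change of ADSL was called in any tissue. In muscle the ages did not overlap, and the change of 0.40 ± 0.16 missed the threshold (adjusted p = 0.0623). It passed under 5 of 15 alternatives, among them the fit without the 4 arrays named above (adjusted p = 0.00662). None of those arrays is from muscle, so the muscle change was still 0.40 there and only its standard error was smaller (0.11). In duodenum, where the other de novo enzymes fell, ADSL overlapped between the ages and its change was -0.17 ± 0.16 (adjusted p = 0.5).

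XDH catalyses the steps that end in uric acid. It rose in liver and in duodenum and was close to background in brain and muscle. Liver pools gave 705, 2426 and 2624 at day 0 and 9941, 12070 and 12428 at day 7. Day 0 pool 1 was the lowest by a wide margin, and the ages were far apart all the same. The log2 change was 2.77 ± 0.43 (adjusted p = 6.48e-05), and without that pool it was 2.17 and still called. In duodenum XDH gave 305, 188 and 264 at day 0 and 986, 2166 and 1587 at day 7, a change of 2.47 ± 0.43 (adjusted p = 0.000135), without overlap.

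The rises of XDH in liver and duodenum differed by 0.29 ± 0.60, with a 95% interval of -0.95 to 1.54, so the data do not show whether one was the larger. Liver stayed above duodenum at both ages, by 2.61 ± 0.43 at day 0 and 2.90 ± 0.43 at day 7. Liver at day 0 and duodenum at day 7 were not called different (adjusted p = 0.836). In brain the 6 pools ranged from 3.46 to 47.2 and in muscle from 3.01 to 106. Most of these lie near or below the value added before taking logs, so no order among them can be read. The second XDH probe set ranged from 0.951 to 108 over all 24 arrays and was the one that failed the filter.

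Markers of other cell types moved in the same tissues, though not only there. Of 5 macrophage markers 3 were called higher in liver and 3 in duodenum, and their summed signal was 9045 to 9281 in liver at day 0 and 36049 to 43498 at day 7. In duodenum it was 5656 to 7505 and then 24095 to 42170. Of 5 T cell markers measured 3 were higher in each of these tissues. Their sum was 928 to 1069 in duodenum at day 0 and 11771 to 15416 at day 7, and in liver 518 to 726 and then 1923 to 2285. Of 5 B cell and plasma cell markers 2 were higher in liver, with a sum of 2403 to 2488 and then 15088 to 20695, and 4 in duodenum, with 3412 to 4266 and then 20861 to 33466. Of 4 red blood cell markers 3 were higher in liver, with a sum of 36803 to 44723 at day 0 and 88162 to 90399 at day 7. In duodenum 3 of the 4 were higher as well, with a sum of 3869 to 6272 at day 0 and 13344 to 15394 at day 7. Markers also moved in brain and muscle, where XDH stayed near background. Red blood cell markers were higher for 3 of 4 in brain and 2 of 4 in muscle. Macrophage markers were higher for 1 of 5 in brain and 2 of 5 in muscle, and T cell markers were called in neither. Of the 5 B cell and plasma cell markers 1 was higher in brain, and 1 was higher and 1 lower in muscle. Of 4 adipocyte markers 1 was lower in liver, 2 in duodenum and 2 in muscle. Of all genes 6.36% were called higher in liver, 10.5% in duodenum, 0.192% in brain and 15.2% in muscle. Called lower were 8.97% in liver, 19.2% in duodenum and 18.2% in muscle. The part of such cells in the rise of XDH was not tested.

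AMPD1, the deaminase of skeletal muscle, was a muscle transcript. The muscle pools gave 3871, 3152 and 3257 at day 0 and 28998, 40216 and 30822 at day 7. The rise was 3.26 ± 0.58 (adjusted p = 0.000117), and the lowest day 7 pool was far above the highest day 0 pool. A second AMPD1 probe set went from 815, 386 and 683 to 9253, 10207 and 9819 in the same pools, a change of 3.96 ± 0.28 (adjusted p = 8.08e-11). In liver, brain and duodenum the group means of the brighter probe set were 22.6 to 84.5, and its highest pool was 242. At day 0 muscle already exceeded liver by 6.09 ± 0.58 on the log2 scale (adjusted p = 2.06e-09), and the size of that difference depends on the value added before taking logs.

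The muscle enzymes that work beside AMPD1 in the purine nucleotide cycle, in which AMP is deaminated to IMP and then rebuilt, are ADSS1 and ADSL. ADSS1, the muscle form of adenylosuccinate synthetase, rose in muscle from 17132 ± 876 to 37543 ± 2280 (1.13 ± 0.14, adjusted p = 7.51e-07) and fell in liver from 2899 ± 156 to 1501 ± 187 (-0.94 ± 0.14). Of the 3 enzymes of the cycle AMPD1 and ADSS1 were called higher in muscle, as were 15.2% of all genes. The ADSL change of 0.40 ± 0.16 missed the threshold (adjusted p = 0.0623) and passed it under 5 of 15 alternatives. The changes of the 3 enzymes were not tested against each other.

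Counted over the members, 1 of 7 was higher and 0 were lower at day 7 in liver, where 6.36% of all genes tested were called higher, 8.97% lower and 15.3% in either direction. In brain 0 of 7 were called by limma, and 1 of 7 had an unadjusted p under 0.05, as had 1610 of the 25758 probe sets. Few genes of any kind were called there, 0.192% higher, 0.105% lower and 0.297% in all. In duodenum 1 of 7 was higher and 4 were lower, against 10.5% and 19.2% of all genes and 29.7% in either direction. In muscle 4 of 7 were higher and 0 lower, against 15.2% and 18.2% of all genes and 33.3% in either direction. The median log2 change of the 7 members was 0.34 in liver, 0.24 in brain, -1.29 in duodenum and 0.61 in muscle, where the medians of all 11444 genes were -0.01, 0.00, -0.12 and -0.02. Centring each array on its median raised the change of the median gene in muscle by 0.117, and the share of muscle calls that were higher went from 45.5% to 57.8%. The members called higher in muscle then numbered 5, with ADSL added, and 0 were lower. Over all alternatives the members called in muscle numbered 3 to 5. With probe sets averaged, GART and PAICS were not called there (adjusted p of 0.15 and 0.0597), and ADSL was (0.0494).

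**Figure D2:**
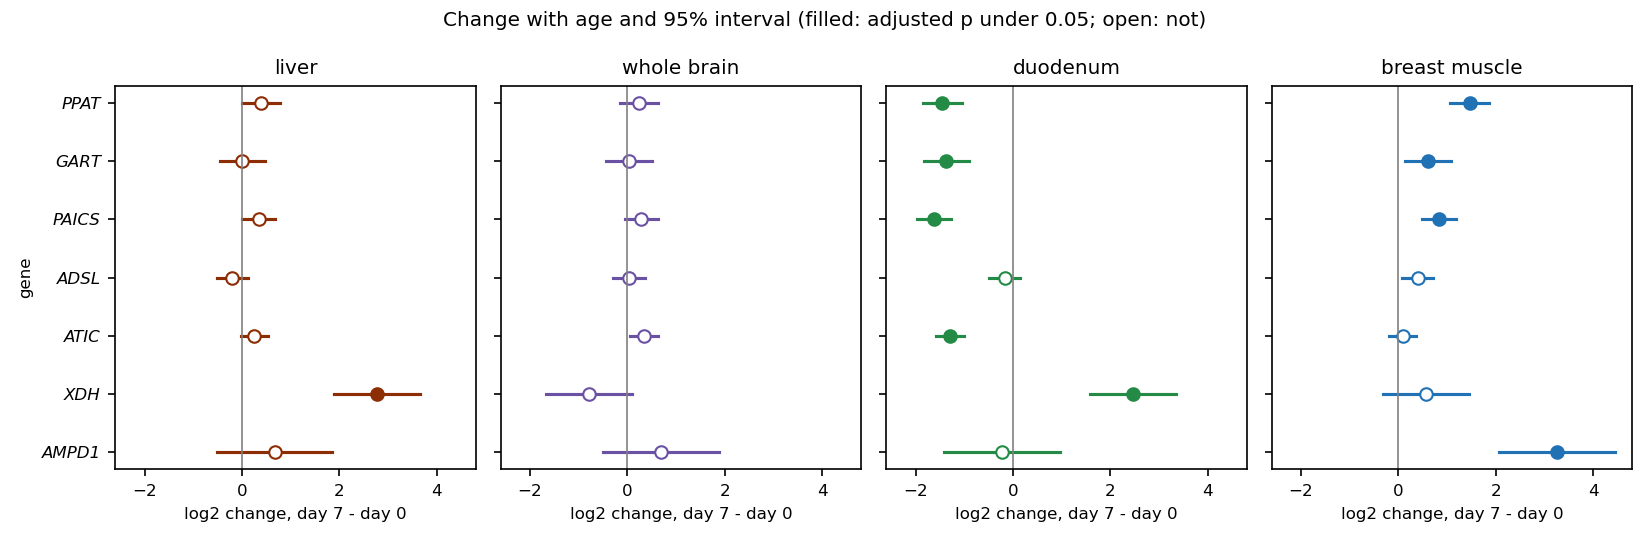
Log2 change from day 0 to day 7 of each of the 7 genes (rows) in the 4 tissues (panels), with bars for the 95% interval of the limma fit (n = 3 pools per age); filled points mark changes with an adjusted p under 0.05. PPAT, GART, PAICS and ATIC lie below 0 in duodenum, XDH lies above 0 in liver and duodenum, and AMPD1 lies at 3.26 in muscle.

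The differences between tissues were tested directly. An F test over the 4 tissues was called for 6 of 7 members by brightest probe set, all but ADSL (adjusted p = 0.121), and for 39% of all genes. It was not called for the dimmer PAICS probe set (adjusted p = 0.92) or the dimmest GART one (adjusted p = 0.203). The second PPAT probe set (adjusted p = 0.000336) and the middle GART one (adjusted p = 0.00021) were called. For AMPD1 the adjusted p was 0.00919, and 0.187 with 1 in place of 28.36 added before taking logs. Its second probe set, whose pools outside muscle all lie below 28.36, had an adjusted p of 2.2e-08. For ADSL the adjusted p was 0.00818 without the 4 arrays named above and 0.0169 without duodenum day 0 pool 2 alone. The age effect in duodenum minus that in muscle was called for 6 of 7 members, against 30.8% of all genes. It was -2.91 ± 0.27 for PPAT (adjusted p = 2.26e-08), -2.46 ± 0.24 for PAICS, -1.98 ± 0.32 for GART and -1.38 ± 0.20 for ATIC. The dimmest GART probe set (-0.58 ± 0.35, adjusted p = 0.245) and the dimmer PAICS one (-0.35 ± 0.46, adjusted p = 0.641) were not called. The second PPAT probe set (-2.10 ± 0.34) and the middle GART one (-1.79 ± 0.28) were. For XDH the difference had the other sign, 1.90 ± 0.60 (adjusted p = 0.0228), with muscle near the added value. For AMPD1 it was -3.49 ± 0.81 (adjusted p = 0.00241), a size that depends on the value added before taking logs, since the duodenum pools of 2 to 242 lie near it. The second AMPD1 probe set gave -4.00 ± 0.39 (adjusted p = 4.64e-08), with the same limit. For ADSL the difference was -0.57 ± 0.22 (adjusted p = 0.0654).

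Liver and duodenum differed in their age effects for 4 of 7 members, against 11.2% of all genes. These were PPAT (1.84 ± 0.27, adjusted p = 5.47e-05), PAICS (1.97 ± 0.24), ATIC (1.55 ± 0.20) and GART (1.38 ± 0.32, adjusted p = 0.00728). The dimmest GART probe set (0.87 ± 0.35, adjusted p = 0.137) and the dimmer PAICS one (0.06 ± 0.46, adjusted p = 0.971) were not called. The second PPAT probe set (1.40 ± 0.34) and the middle GART one (1.06 ± 0.28) were. The comparison of liver and duodenum shares the duodenum pools with the one against muscle. Liver and muscle differed for 3 of 7 members, against 25.8% of all genes. The first was PPAT (-1.07 ± 0.27, adjusted p = 0.00566). The others were XDH (2.20 ± 0.60, adjusted p = 0.0109, with muscle near the added value) and AMPD1 (-2.59 ± 0.81, adjusted p = 0.025, with liver near the added value). The second PPAT probe set was not called here (-0.70 ± 0.34, adjusted p = 0.162), and the second AMPD1 one was (-3.85 ± 0.39, adjusted p = 1.16e-07).

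Cell division genes moved in duodenum and muscle, as the de novo enzymes did in part, and also in liver. Of 15 such genes measured, 14 were called lower in duodenum with a median log2 change of -1.45, and 10 were called higher in muscle with a median of 1.00. Of all genes, 19.2% were called lower in duodenum and 15.2% higher in muscle. In liver 14 were lower and 1 higher, with a median of -1.17, where 8.97% and 6.36% of all genes were called so. Of the 5 de novo enzymes 0 were called there, near the share of 15.3% of all genes called in either direction. PPAT passed the threshold with liver fitted alone (adjusted p = 0.018). The mitosis kinase CDK1, for example, changed by -0.91 ± 0.20 in liver, -1.30 ± 0.20 in duodenum and 1.85 ± 0.20 in muscle. The 6 markers of dividing cells are among the 15 genes, so their sums restate the same probe sets. Their summed signals were 35242 to 36391 in duodenum at day 0 and 12476 to 15351 at day 7. In muscle they were 5275 to 5959 and then 11029 to 11381, and in liver 20266 to 24837 and then 10354 to 11951. In whole tissue, fewer cells of a type and less RNA per cell cannot be told apart, and the part of dividing cells in the changes of the de novo enzymes was not tested.

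The probe sets of a gene did not always give the same result. The second PPAT probe set was called in the same directions as the first, at -1.07 in duodenum (adjusted p = 0.00202) and 1.03 in muscle (adjusted p = 0.00223). Of the other GART probe sets, one was called in both tissues, with changes of -1.20 and 0.59. The other was called lower in duodenum (-0.94, adjusted p = 0.006), but in muscle its change was -0.36 (adjusted p = 0.297), against the rise of the brightest. The 3 GART probe sets therefore do not give one direction in muscle. The other PAICS probe set was brightest in brain, at 251 to 558 over the 6 brain pools against 137 to 239 in liver, and was called for age in 0 tissues by limma. With the probe sets of a gene averaged on the log scale, PAICS in muscle was no longer called (0.44 ± 0.18, adjusted p = 0.0597), nor was GART (0.28 ± 0.15, adjusted p = 0.15).

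**Figure D3:**
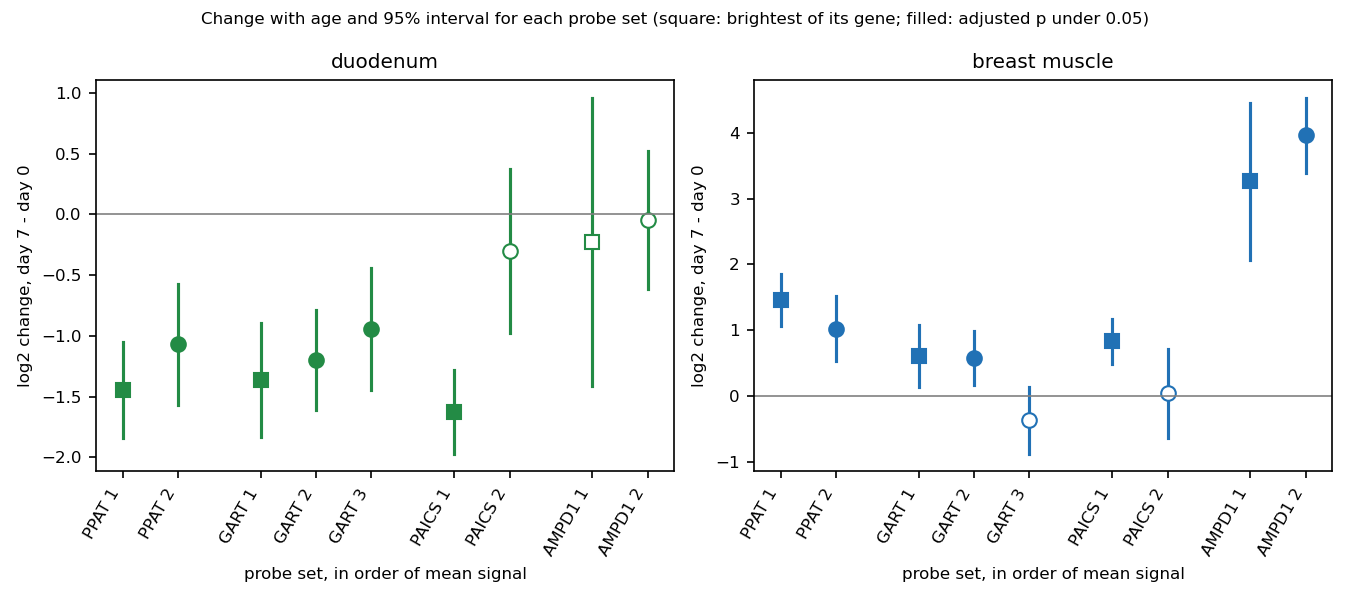
Log2 change from day 0 to day 7 in duodenum and breast muscle for the probe sets of PPAT, GART, PAICS and AMPD1, the genes with more than 1 that passed the filter, with bars for the 95% interval (n = 3 pools per age); squares are the brightest of a gene and filled marks have an adjusted p under 0.05. The GART probe sets part in muscle, where 1 lies at -0.36, and the interval of the weaker PAICS probe set crosses 0 in both tissues.

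Across the 8 group means on the log2 scale, the 4 liver-enriched de novo genes followed each other closely. Pearson correlations between PPAT, GART, PAICS and ATIC ran from 0.900 to 0.974. These describe 8 group means from the same arrays, in which liver lay far above the rest for each of these genes. ADSL correlated at 0.87 with ATIC and at 0.61 with PAICS, and at 0.47 with AMPD1. XDH correlated at 0.82 with PPAT and at -0.48 with AMPD1.

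The 3 genes closest to each member by the same correlation were taken from all genes tested. They were XBP1, BPHL and SLC5A3 for PPAT (0.982 to 0.987), GOLIM4, MRC1 and EXOG for GART (0.989 to 0.994), and LOC418298, BMP10 and AvBD10 for PAICS (0.971 to 0.979). ATIC was most like SERGEF, PRDX4 and RMDN1 (0.987 to 0.989), and ADSL was most like ALDH7A1, NDUFAF3 and IVD (0.988 to 0.993). For XDH the list held SEL1L3, AFMID and IGSF6 (0.980 to 0.996), and for AMPD1 it held GPD1, ASB12 and UCP3 (0.991 to 0.996). No member was among the 3 closest genes of another.

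The shares of all genes called in each tissue, given above for the members, are also the background for the counts of related genes that follow. Phosphoribosyl pyrophosphate (PRPP), the ribose donor that PPAT uses, is made by PRPS enzymes. PRPS2 gave 35666 to 37679 in liver at day 0 and 50495 to 54093 at day 7, a change of 0.51 ± 0.21 that was not called (adjusted p = 0.142). It was 3994 ± 778 and 2339 ± 308 in muscle, where it fell by 0.76 on the log2 scale, and its group means in brain and duodenum were 18.7 to 37.6. Of 3 genes of PRPP supply measured, 0 were called in liver, brain or duodenum by limma and 2 were lower in muscle, with a median of -0.62. These were PRPS2, whose call was lost under 3 of 15 alternatives (adjusted p up to 0.221), and the regulatory subunit PRPSAP1 (-0.62 ± 0.20, lost under 8 of 15).

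One-carbon units for the ring come from folate. MTHFD1, a trifunctional folate enzyme, gave 24181 ± 1672 and 20177 ± 1041 in liver at the 2 ages, and fell in duodenum from 2726 ± 119 to 794 ± 108 (-1.75 ± 0.12, adjusted p = 3.68e-10). The mitochondrial folate enzyme MTHFD2 rose in muscle from 1959 ± 180 to 4841 ± 650 (1.29 ± 0.23) and changed in duodenum by -0.94 ± 0.23, a call lost with the mean over its probe sets (-0.21, adjusted p = 0.505). Of 9 genes of one-carbon and glutamine supply measured, 6 were lower and 1 higher in duodenum, 3 higher and 1 lower in muscle, and 2 lower in liver, with medians of -0.92, 0.12 and -0.00. The list counts TYMS, the thymidylate synthase, which uses a one-carbon unit and does not supply the ring, and the duodenum median is its value. The 2 that fell in liver were TYMS (-1.54) and ALDH1L2 (-0.91). ALDH1L2 had liver means of 42.6 and 7.52, around the added value, and its call was lost under 6 of 15 alternatives. The 1 that rose in duodenum was the glutamine synthetase GLUL, at 1.54 ± 0.37, with day 7 pools from 6577 to 31197. Its change ran from 0.92 to 2.04 with an array left out, and the call was lost with duodenum fitted alone (adjusted p = 0.0894). Among listed genes outside the members, only PRPS2, MTHFD1, SHMT1, MTHFS and the adenosine kinase ADK met the rule for liver enrichment at both ages. Of all genes tested, 2.62% met it at day 0 and 2.74% at day 7. No measured gene of the AMP and GMP branches, of transport or of the molybdenum cofactor list met it.

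From IMP the pathway branches to AMP and GMP. Of 6 branch genes measured, 2 fell in liver, 2 fell in duodenum and 2 rose in muscle, where 8.97%, 19.2% and 15.2% of all genes did so. The medians were -0.48, 0.13 and -0.11, and with 6 genes the counts describe these genes and not the branch. IMPDH2, the rate-limiting enzyme towards GMP, fell in duodenum from 5895 ± 698 to 2716 ± 165 (-1.10 ± 0.12). Its rise of 0.38 ± 0.12 in muscle was lost under 5 of 15 alternatives. GMPS, the next enzyme of that branch, fell in duodenum (-0.63 ± 0.16, lost under 2 of 15), and ADSS2, the more widely expressed adenylosuccinate synthetase, fell in liver (-0.63 ± 0.16).

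Salvage and breakdown genes, which recycle bases and nucleosides or pass them towards XDH, were mixed. Of 11 measured, 4 fell and 1 rose in duodenum, 3 rose and 3 fell in muscle, and 2 fell in liver, with medians of -0.54, 0.23 and -0.19. ADK fell in duodenum from 3252 ± 677 to 1178 ± 211 (-1.44 ± 0.15). GDA, the guanine deaminase whose product xanthine is a substrate of XDH, rose in duodenum from 756 ± 155 to 2513 ± 548 (1.69 ± 0.34), a call lost with 1 added before taking logs (adjusted p = 0.105). The deoxycytidine kinase DCK fell in liver (-1.10 ± 0.19) and rose in muscle (0.99 ± 0.19). ITPA, which removes deaminated nucleotides, fell in liver (-0.87 ± 0.21) and duodenum (-1.09 ± 0.21), each lost under 2 of 15 alternatives. HPRT1, which returns hypoxanthine and guanine to the nucleotide pool, changed by -0.54 ± 0.17 in duodenum (lost under 4 of 15) and 0.46 ± 0.17 in muscle (lost under 9 of 15, and 0.02 with the mean over its probe sets). The nucleotidase NT5E changed by -0.70 ± 0.25 in duodenum and -0.68 ± 0.25 in muscle, lost under 12 and 10 of 15. In muscle the adenosine deaminase ADA (-1.25 ± 0.15) and the nucleotidase NT5C2 (-1.51 ± 0.26) fell, and the muscle nucleotidase NT5C1A rose (1.07 ± 0.32, lost under 4 of 15 alternatives).

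XDH needs a molybdenum cofactor, and the genes of its synthesis and of related oxidases rose in muscle, a tissue in which XDH itself stayed near background. All 5 measured were called higher there, with a median log2 change of 1.68: AOX1 by 1.99 ± 0.38 (adjusted p = 0.0531 with 1 added before taking logs), MOCS1 by 1.68 ± 0.31, GPHN by 1.68 ± 0.17, MOCS2 by 1.52 ± 0.27 and MOCOS by 1.14 ± 0.29. In brain, where XDH was also near background, 0 of the 5 were called by limma and their median change was -0.00. In liver, where XDH rose, 0 of the 5 were called by limma and their median change was -0.03. In duodenum, where XDH also rose, 1 was higher and 1 lower, with a median of 0.02. These were MOCOS (0.80, lost under 9 of 15 alternatives) and GPHN (-0.98). Of 6 urate and nucleoside transporters measured, 1 rose and 1 fell in duodenum and in muscle, and 0 were called in liver or brain. The nucleoside transporter SLC28A2 rose in duodenum from 2188 ± 200 to 5796 ± 1239 (1.37 ± 0.34, and adjusted p = 0.0984 with 1 added), and ABCG2, a urate exporter in mammals, fell in muscle (-0.74 ± 0.15).

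**Figure D4:**
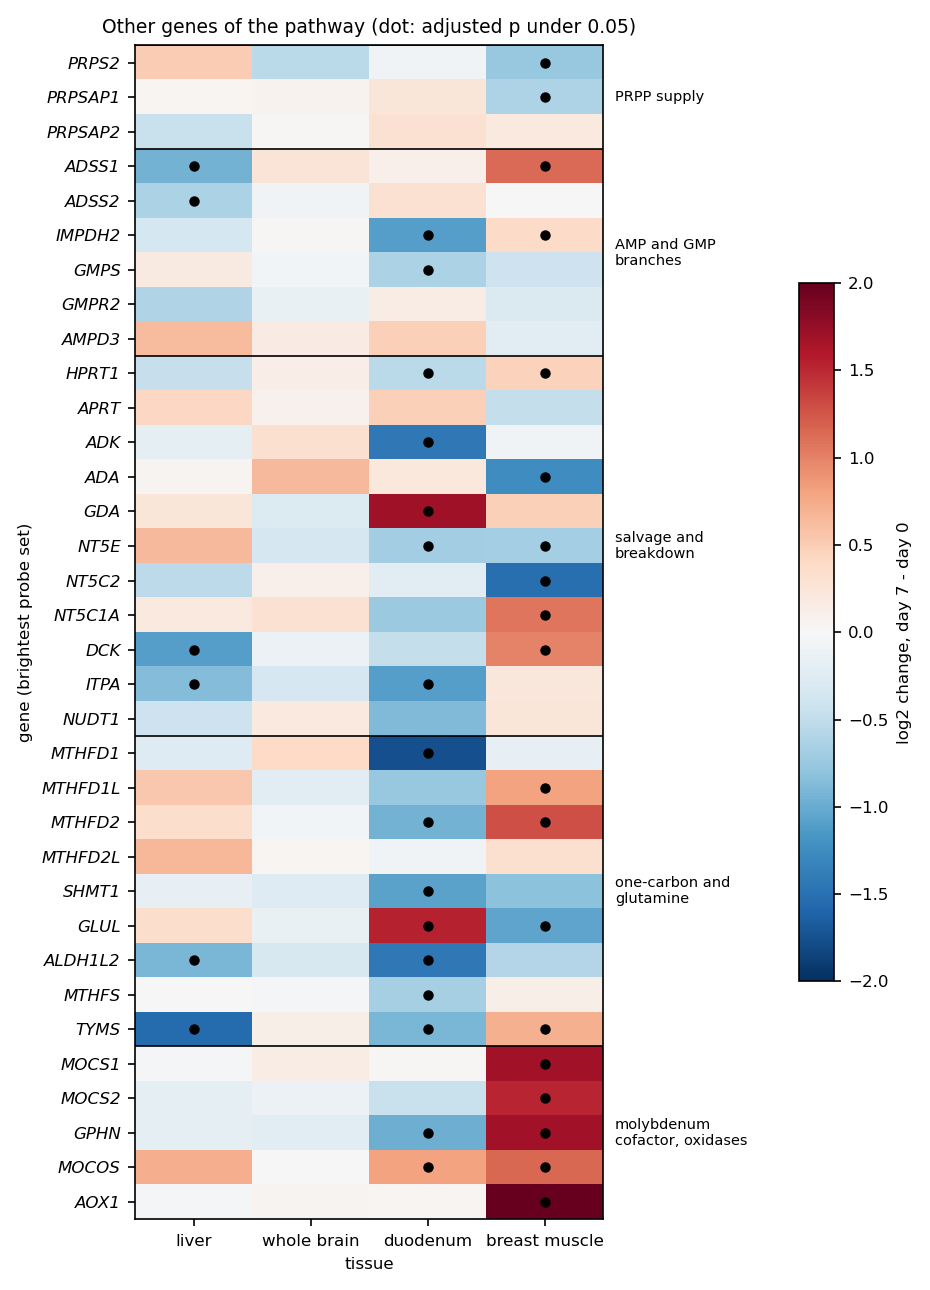
Log2 change from day 0 to day 7 in each tissue for the measured genes of 5 related lists (rows), as colours on a scale symmetric about 0, with dots for an adjusted p under 0.05. The one-carbon genes are mostly lower in duodenum, except GLUL, and all 5 genes of the molybdenum cofactor list are higher in muscle.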

How the data were processed

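The authors deposited linear signal intensity for every probe set on every array, computed with MAS5 per the submitters' processing notes, whose version is not given in the sources used. With 2% of probe sets trimmed at each end, every array had a mean of 500.1 or 500.2, so the deposited values were already scaled. The number of arrays limits the precision.

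Signals were taken as log2(signal + 28.36), the 25th percentile of all signals. Leaving out 96 control probe sets, probe sets were kept where a group's mean log2 value reached that of a signal of 104.6, the median, which left 25758 and 11444 genes by brightest probe set. A model of 8 group means was fitted with limma 3.58.1 in R 4.3.3 (trended empirical Bayes variances, 16 residual and 7.94 prior degrees of freedom), and age effects, tissue pairs and differences of age effects were contrasts of it, adjusted over all probe sets kept. The scripts were tested on simulated data.

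Symbols came from the array annotation (27178 probe sets with 1, 177 with several, 11180 with none), updated by gene number to RefSeq GRCg7b for 26863. The 2 probe sets annotated to GART-B were not counted as GART. The sources name no build for the array's probes, so no coordinates are given.

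The members and the lists of related genes were chosen with earlier results of these data known. The genes named were all members with all probe sets, called genes of the purine lists, up to 3 called genes per other list and tissue by size of change, and the 3 genes most correlated with each member. Exceptions, chosen after their values were seen, were CDK1 as an example of the cell division list, the MOCOS and MOCS2 values that complete a list, and TYMS in duodenum.

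Alternatives were other added values, no filter, median centring, quantile normalization, the mean over probe sets, each tissue fitted alone, the replicate block, leaving out 4 arrays and leaving out each array. Deviations of same-numbered pools from their group means had positive but small correlations in liver (0.00142 to 0.0307) and muscle (0.0161 to 0.0231). In brain and duodenum the correlations had both signs (-0.439 to 0.377). The numbers were therefore not taken to pair the pools.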

Additional observations from a re-analysis of the deposited data

Results flagged for a closer look

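The age effect differed between the 4 tissues for 6 members by the limma F test, each by its brightest probe set. That test had an adjusted p of 9.52e-08 for PAICS, 1.62e-07 for PPAT, 1.12e-06 for ATIC, 0.000286 for GART, 0.000136 for XDH and 0.00919 for AMPD1. As given above, the dimmer PAICS probe set and the dimmest GART one were not called by it. In PAICS and PPAT a fall in duodenum (log2 changes of -1.63 and -1.45) stood against a rise in muscle (0.83 and 1.47). GART fell in duodenum (-1.36), and its probe sets gave no single direction in muscle. ATIC fell in duodenum alone by its calls (-1.29). XDH rose in liver and duodenum (2.77 and 2.47), and AMPD1 rose in muscle (3.26).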

How the results depend on the processing

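Of 420 values of the members' age changes recomputed under 9 alternatives and with each of 24 arrays left out, 404 kept direction or stayed uncalled as before, 16 changed side of the threshold and 0 reversed. With each tissue fitted alone, 2 members were called in liver in place of 1, PPAT being added (adjusted p = 0.018), and 3011 probe sets in duodenum in place of 5948. Brain calls were few and unstable: 60 probe sets became 36 with median centring, 96 with quantile normalization, 13 with brain fitted alone and 26 to 48 with a brain array left out. Liver calls went from 2958 to 5020 without the 4 arrays that stand apart. None of those arrays is from liver, so the liver log2 changes stayed the same and only their tests differed. The F test of ADSL (adjusted p = 0.121) gave 0.00818 without those arrays and 0.0169 to 0.297 with an array left out, and that of AMPD1 (0.00919) gave 0.187 with 1 added before logs. With the replicate block, which the labels' numbers do not justify as pairs, brain gave 19 calls, the F test of AMPD1 0.0561 and GART in muscle an adjusted p of 0.0751. GART in muscle was lost in 9 of 15 alternatives and PAICS in muscle with the mean over probe sets, which gives no count of probe sets. Of 72 calls of other pathway genes 36 were kept under every alternative run and 36 were lost under at least 1. The cause of the other shifts was not tested. Low signals limit XDH in brain and muscle and AMPD1 outside muscle, where values lie near the one added.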

Other observations

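Pyrimidine synthesis, the sister pathway of nucleotide supply, fell in part in duodenum. Of 11 genes measured 5 were lower and 0 higher there (median log2 change -0.54, where all genes had -0.12), 2 were higher and 3 lower in muscle, and 0 were called in liver or brain by limma. In duodenum CTPS1, which makes CTP, changed by -1.49 ± 0.23, CAD, which carries the first steps, by -1.40 ± 0.24 and UMPS, which carries the last, by -1.22 ± 0.25. The call of CAD was lost with the mean over its probe sets (-0.33, adjusted p = 0.382) and that of UMPS with duodenum fitted alone (adjusted p = 0.0736). In muscle the largest called change was a rise, of NME1 (1.27), from a mean of 50.8 ± 13.4 to 165 ± 47.8. That call was lost with 1 added before taking logs (adjusted p = 0.0868). The kinase UCK1 changed there by -0.86 ± 0.14 and CTPS2 by -0.90 ± 0.23.

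Adenylate and creatine kinases, which buffer ATP, were mixed. Of 7 measured, 3 were higher and 1 lower in muscle with a median of 0.08, where 15.2% and 18.2% of all genes were called. Among them were CKMT2 at 1.84 ± 0.24 and AK1, the muscle adenylate kinase, from 24610 ± 1124 to 51394 ± 3268 (1.06 ± 0.14). AK1 fell in liver by 1.83 on the log2 scale, and AK3 rose there from 2177 ± 106 to 11514 ± 388 (2.39 ± 0.16), the 1 rise of that list in liver. In duodenum 2 were higher and 2 lower. Of 9 regulators of growth and metabolism measured, 3 fell in liver, 2 fell in duodenum, and 1 rose and 1 fell in muscle. MYC, a growth regulator known to act on purine enzymes in mammals, changed by -1.71 ± 0.17 in liver and -1.24 ± 0.17 in duodenum, MYCN by -1.20 ± 0.20 and -1.15 ± 0.20, and PPARGC1A by -1.89 ± 0.17 in liver and -1.22 ± 0.17 in muscle. The regulator that rose in muscle was MYCN (0.59), a call lost under 6 of 15 alternatives.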
